A study of Homo sapiens with 62 samples.

Results

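The genes described here are 33 genes of the melanocyte lineage and of pigmentation, chosen by name: the transcription factors SOX10, MITF, PAX3, TFAP2A, LEF1 and IRF4, the pigment and melanosome genes TYR, TYRP1, DCT, PMEL, MLANA, GPNMB, GPR143, OCA2, SLC45A2, SLC24A5 and TRPM1, the organelle biogenesis and transport genes RAB27A, MLPH, MYO5A, RAB38 and HPS4, the receptors KIT, EDNRB and MC1R, and CAPN3, TSPAN10, ABCB5, BCAN, QPCT, ST8SIA1, S100B and CHL1. All 33 were found under 1 gene ID in every table, among 58735 genes listed for A2058, AGS, HCT116 and MCF10A and 48162 listed for A2780. They were followed in A2058, a human melanoma cell line that carries extra copies of the chromosome arms 1q, 7p and 8q, and their level was read in 4 lines of other origin. The A2058 libraries were 4 of the unedited line (WT), 4 of clones engineered to lose the extra 1q (2 clones), 6 of clones that lost the extra 7p (3 clones) and 4 of clones that lost the extra 8q (2 clones). Each clone grew from a single cell and gave 2 libraries, and all 7 were made with ReDACT-CO, the version of the chromosome-removal method that the labels give for them. The other lines were A2780 (ovarian cancer), AGS (gastric cancer), HCT116 (colorectal cancer) and MCF10A (breast epithelium, with and without hRASV12), each as WT cells and as clones without the extra 1q, or without the extra 8q in HCT116. By the labels, the HCT116 clones were made with ReDACT-CO, the A2780 clones with ReDACT-NS, the AGS clones with ReDACT-NS except 1 with ReDACT-CO, and the MCF10A clones, with and without hRASV12, with ReDACT-TR except 1 of each 4 with ReDACT-CO. In AGS and A2780, cells with a TK+ integrant that keep the gain were counted with the WT controls.

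Melanocytes make the pigment melanin inside melanosomes, organelles that mature along a lysosome-related pathway and are then carried along actin to the cell's edge. SOX10 and PAX3 activate MITF, the central transcription factor of the lineage, which binds E-box sequences in the promoters of pigment genes such as TYR, TYRP1 and PMEL. Melanomas often keep part of this program, and its genes are used to tell pigmented, differentiated melanoma states from dedifferentiated ones.

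Polyadenylated RNA was sequenced to between 15042068 and 30984036 counted reads per library over the 62 libraries, and to between 19595543 and 28622197 in the 18 of A2058. The counts of 12 genes of the set, SOX10, PMEL, MLANA and MC1R among them, may include reads of a coding gene that overlaps them (POLR2F, CDK2, KIAA2026 and TCF25 in these 4), since whether strand was used in counting is not given in the sources used here. Genes on the targeted arm lay lower than other autosomal genes in every A2058 loss library, relative to WT: by a median log2 shift of -0.48 to -0.43 on 1q in the 1q-loss libraries, of -0.55 to -0.44 on 7p in the 7p-loss libraries and of -0.58 to -0.50 on 8q in the 8q-loss libraries. The 1q-loss libraries and both libraries of 7p-loss clone 1 stood apart from WT over the whole transcriptome. A gene was called at a Benjamini-Hochberg adjusted p under 0.05 in edgeR's quasi-likelihood test. In the group fit of 1q-loss against WT, 49.6% of 15387 genes were called. In a separate fit of all 18 A2058 libraries by clone, 34.0% of 17302 genes were called in 7p-loss clone 1. The same fit gave 38.1% in 1q-loss clone 1 and 41.7% in clone 2. The 6 lineage markers S100B, TYR, MLANA, PMEL, MITF and SOX10 summed to 1765 to 2770 CPM (counts per 1000000 counts of the library) in WT, 1013 to 2925 in 7p-loss, 1862 to 2724 in 8q-loss and 45.6 to 140.9 in 1q-loss, so the 1q-loss libraries held these defining markers at a small share of the WT level. Over the same libraries, 7 fibroblast and mesenchyme markers summed to 44.1 to 55.1 CPM in WT, 8.74 to 40.2 in 7p-loss, 68.4 to 83.8 in 8q-loss and 140.1 to 268.8 in 1q-loss, so that each loss group lay apart from WT. In 1q-loss COL1A1 made up 106.7 to 239.8, against 15.2 to 22.3 in WT. The other collagens of that list did not share this: COL3A1 was at 5 to 8.01 CPM in WT and 0.740 to 2.94 in 1q-loss, and COL1A2 was at 0.185 to 0.510 CPM in WT and 0.142 to 0.427 in 1q-loss. Simple epithelial markers summed to 81.4 to 107 CPM in WT and 163.5 to 206.5 in 1q-loss, mostly KRT18. Schwann cell markers, on the other hand, went from 214.1 to 253.6 CPM in WT to 10.96 to 42.6 in 1q-loss, and the 2 immune markers summed to under 0.4 CPM in all 18 libraries. Basal epithelial markers summed to 0.175 to 0.459 CPM in WT and 0.285 to 15.4 in 1q-loss. The part of other cell types in the results below was not tested, and in bulk RNA fewer cells of a type and less RNA per cell cannot be told apart.

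In the clones without the extra 1q, nearly the whole set was lower than in WT: 30 of the 33 genes fell, MLPH and RAB27A rose, and TFAP2A was not called. Among all genes tested, 25.3% were called higher and 24.3% lower. The median log2 fold change was -3.54 over the 33 genes and 0.00 over all genes tested. In 29 genes every 1q-loss library lay below every WT library, which was the case for 25.3% of all genes tested, and in MLPH every 1q-loss library lay above WT, as in 22.3% of all genes. Loss of 7p and loss of 8q left most of the set uncalled. In 7p-loss, 1 gene fell and none rose (0.908% of 15305 genes were called, 0.105% higher and 0.804% lower), and 8 of the 33 had an unadjusted p under 0.05, as did 1986 of all 15305 genes. In 8q-loss, 5 genes fell and none rose (2.03% of 15141 genes were called, 0.542% higher and 1.49% lower), and 14 had an unadjusted p under 0.05, as did 1973 of all 15141 genes. The median log2 fold change of the 33 genes was -0.23 in 7p-loss, with 22 below 0, and -0.28 in 8q-loss, with 27 below 0, against 0.01 over all genes in both. By library, 26 and 23 of the 33 lay below the lowest WT library and none above the highest in 7p-loss clone 2, where 28.9% and 25.5% of 13490 genes lay below and 27.6% and 25.1% above. In 8q-loss clone 2, 23 and 22 lay below and 0 and 4 above (25.1% and 25.8% of all genes below, 23.8% and 28.5% above). The other clones of these losses had 7 to 20 below and 2 to 17 above (25.3% to 42.8% of all genes below, 23.7% to 32.6% above). The 3 comparisons share their WT libraries. The 2 libraries of a clone share that clone as their source, so these p-values measure the spread between libraries and not between independent losses of an arm. The 1q arm itself carries only BCAN of the 33, 7p carries GPNMB and ABCB5, and 8q carries none.

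**Figure D1:**
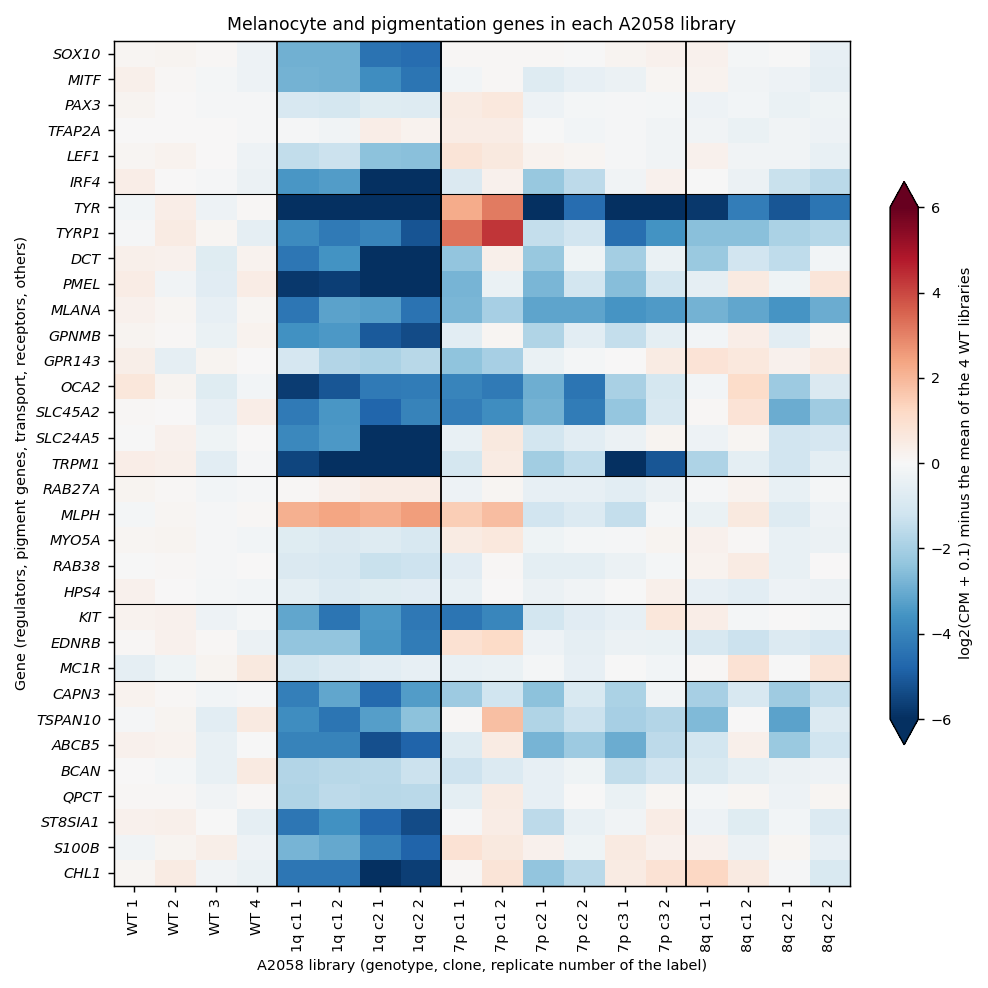
Level of each of the 33 genes in the 18 A2058 libraries, as log2(CPM + 0.1) minus the mean of the 4 WT libraries, with genes in rows by role and libraries in columns by genotype, clone (c) and replicate number. The 4 columns of 1q-loss are blue in nearly every row except MLPH, RAB27A and TFAP2A, while the rows TYR, TYRP1 and MLANA are blue in 8q-loss and TYR and TYRP1 are red in 7p-loss clone 1 alone.

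Among the transcription factors, SOX10, which specifies neural crest derivatives and keeps melanocytes in their lineage, was at 634, 660.3, 612 and 473 CPM in WT replicates 1 to 4 (gene ENSG00000100146, GRCh38 chr22:37970686-37987422). The 1q-loss libraries held 80.1 and 80.6 CPM in clone 1 and 27.5 and 24.4 in clone 2. Both clones lay far below WT, clone 2 lower than clone 1, and the log2 fold change of the group was -3.46 (SE 0.389, adjusted p = 3.99e-05), an 11-fold fall. The 7p-loss libraries (lowest 586, median 628, highest 695.5 CPM) and the 8q-loss libraries (696, 536, 581 and 414 CPM) overlapped with WT. MITF, the lineage's central regulator (ENSG00000187098, chr3:69739435-69968337), was at 211.4, 179.4, 158.8 and 138.8 CPM in WT and at 23.7, 23.2, 12.8 and 8.14 in 1q-loss. This was a 9.98-fold fall (log2 fold change -3.32, SE 0.302, adjusted p = 9.05e-06). In 7p-loss MITF ranged from 98.1 to 186.4 CPM and in 8q-loss from 117.5 to 196.4 CPM, and neither was called (adjusted p = 0.634 and 0.668). Both groups overlapped with WT. Both libraries of 7p-loss clone 2 (98.1 and 120.6), replicate 1 of 7p-loss clone 3 (134) and both of 8q-loss clone 2 (136.9 and 117.5) lay below the lowest WT library. The tables count whole genes, so the MITF promoters used by different cell types are added together.

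The other 4 factors differed in how far they went. IRF4, which activates TYR together with MITF, was at 64.8, 49.3, 46.9 and 38.1 CPM in WT and at 4.26 and 4.75 in 1q-loss clone 1 and 0.590 and 0.481 in clone 2 (log2 fold change -4.31, SE 0.545, adjusted p = 9.05e-05). LEF1, a mediator of Wnt signalling that cooperates with MITF, fell 3.55-fold in 1q-loss, from 97.7 to 140.2 CPM in WT to 43.3, 49.7, 22.2 and 21.6 CPM (adjusted p = 2e-04). PAX3, which acts upstream of MITF, fell 1.79-fold, from 31.9 to 37.4 CPM in WT to 15.9 to 20.2 CPM (adjusted p = 6.84e-05). TFAP2A, a factor of neural crest and epithelial cells, was the gene of the 33 not called in 1q-loss (adjusted p = 0.363): clone 1 held 141.5 and 126.5 CPM, clone 2 held 196.5 and 171.5, and WT held 139.2 to 151.9. The 5 factors that fell did so to different degrees in the same libraries, from 19.8-fold in IRF4 through 11-fold in SOX10 to 1.79-fold in PAX3.

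**Figure D2:**
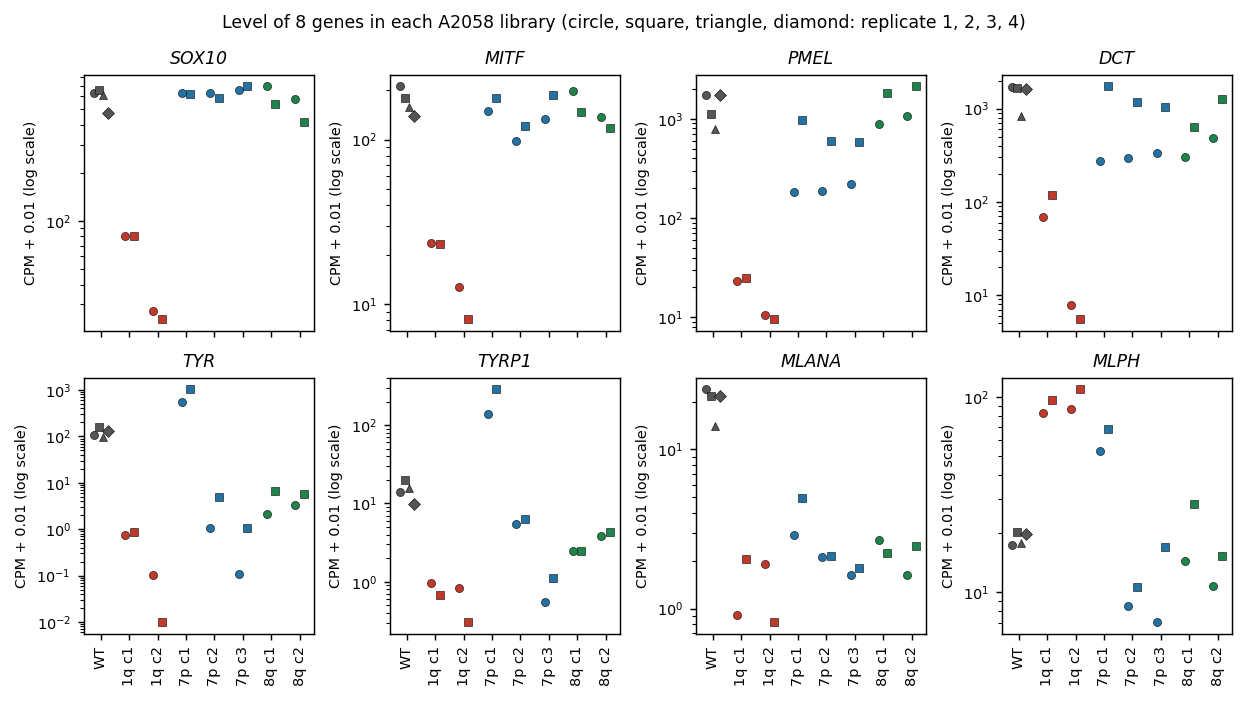
CPM (log scale, 0.01 added) of 8 genes in each A2058 library, grouped by WT and clone, with the marker shape giving the replicate number of the label. In all panels except MLPH the 1q-loss libraries lie lowest or among the lowest, TYR and TYRP1 of 7p-loss clone 1 lie above all WT libraries, and the 1q-loss libraries of MLPH lie at 83.1 to 109.3 CPM against 17.4 to 20.3 in WT.

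All 11 pigment and melanosome genes fell in 1q-loss, with log2 fold changes between -8.64 and -1.64 and a median of -4.66. TYR encodes tyrosinase, the enzyme that starts melanin synthesis from tyrosine. It (ENSG00000077498, chr11:89177452-89295759) was at 108.1, 158.6, 97.1 and 127.9 CPM in WT and at 0.757 and 0.854 CPM in 1q-loss clone 1. Clone 2 had 2 and 0 counts, or 0.0908 and 0 CPM. The fitted fall was 298-fold for the group (log2 fold change -8.22, SE 0.426, adjusted p = 2.46e-07). TYRP1, which stabilises tyrosinase and acts later in eumelanin synthesis, was at 13.8, 20.1, 15.7 and 9.92 CPM in WT and at 0.946, 0.665, 0.817 and 0.296 in 1q-loss, 21.6-fold lower (adjusted p = 2.12e-06). DCT, the dopachrome tautomerase, was at 1722, 1652, 833.5 and 1627 CPM in WT, at 69.0 and 118.3 in 1q-loss clone 1 and at 7.81 and 5.55 in clone 2. Its log2 fold change was -4.84 (SE 0.875, adjusted p = 0.00101), and the 2 clones stood apart from each other.

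PMEL forms the amyloid fibrils on which melanin is laid down and had the highest level per kilobase of gene length of the 33 genes in WT, 343.2 CPM per kb. It was at 1727, 1114, 781 and 1734 CPM in WT and at 23.0, 25.1, 10.5 and 9.62 CPM in 1q-loss, a 77.1-fold fall (log2 fold change -6.27, SE 0.415, adjusted p = 1.09e-06). MLANA, the melanosomal antigen MART-1 (ENSG00000120215, chr9:5890802-5910606), was at 23.9, 21.6, 13.96 and 21.7 CPM in WT and at 0.899, 2.04, 1.91 and 0.814 in 1q-loss, 14.1-fold lower (adjusted p = 3.66e-06). GPNMB, a relative of PMEL, was at 630.7 to 961.7 CPM in WT and at 69.1, 78.6, 25.8 and 20.2 CPM in 1q-loss (17.4-fold, adjusted p = 2.11e-05).

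The transporters and channels of the melanosome followed the same direction. OCA2, an anion channel of the melanosome, was at 3.11 to 8.32 CPM in WT and at 0 to 0.185 in 1q-loss (adjusted p = 1.29e-05). SLC45A2, which helps to hold melanosomal pH, was at 7.05 to 13.3 CPM in WT and 0.272 to 0.807 in 1q-loss (adjusted p = 1.75e-06). SLC24A5, a cation exchanger, was at 15.1 to 22.1 CPM in WT, 1.18 and 1.57 CPM in 1q-loss clone 1 and 0.0908 and 0.111 in clone 2 (adjusted p = 5.9e-05). TRPM1, a channel whose transcript also hosts a microRNA, had 171, 185, 89 and 143 counts in WT and 1 count in all 4 1q-loss libraries together. Scaled by library size this was a 614-fold difference, with a 95% exact interval of 110 to 24278 that covers counting error only. GPR143, a receptor of the melanosome membrane, changed least of the 11: it was at 1.80 to 3.37 CPM in WT and 0.636 to 1.28 in 1q-loss, a 3.11-fold fall (adjusted p = 0.000833).

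MITF is known to bind the E-box forms CATGTG and CACGTG, and promoter sequences are shown for 5 genes that hold one of them, 4 that fell in 1q-loss and 1 that rose. RefSeq promoters (GRCh38.p14, 250 bases before to 50 after each start) were matched for 27 of the 33 genes, with 45 promoters in all. No entry was matched for SOX10, PMEL, SLC45A2, RAB38, ABCB5 and S100B. CATGTG, read on both strands, stood in 33.3% of these 45 promoters and in 11.1% of all 35116 promoters in the table. TCATGTG, the core of the M-box and a form that contains CATGTG, stood in 15.6% and 2.92%. CACGTG stood in 2.22% and 7.26%. Of the 24 matched genes that fell in 1q-loss, 13 held CATGTG in at least 1 promoter and 11 in none, the latter being MLANA, MITF, IRF4, LEF1, PAX3, KIT, MYO5A, QPCT, ST8SIA1, CHL1 and BCAN. Several promoters of 1 gene are counted separately in the shares, and a match is a description of the letters only. In the sequences below, written 5′ to 3′ on the strand of the gene, capitals mark these motifs. TYR (chr11:89177625-89177924, + strand) and TYRP1 (chr9:12693135-12693434, + strand) each hold CATGTG at 2 places, as do DCT (chr13:94479633-94479932, - strand) and GPNMB (chr7:23246525-23246824, + strand). MLPH, which rose most of the 33 genes in 1q-loss, holds 1 CACGTG (chr2:237487001-237487300, + strand).
TYR: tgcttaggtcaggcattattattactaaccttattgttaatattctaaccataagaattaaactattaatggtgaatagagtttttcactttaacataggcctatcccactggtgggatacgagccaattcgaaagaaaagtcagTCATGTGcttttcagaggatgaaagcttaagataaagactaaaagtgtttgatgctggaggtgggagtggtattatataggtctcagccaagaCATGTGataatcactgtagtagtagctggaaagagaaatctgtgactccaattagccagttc
TYRP1: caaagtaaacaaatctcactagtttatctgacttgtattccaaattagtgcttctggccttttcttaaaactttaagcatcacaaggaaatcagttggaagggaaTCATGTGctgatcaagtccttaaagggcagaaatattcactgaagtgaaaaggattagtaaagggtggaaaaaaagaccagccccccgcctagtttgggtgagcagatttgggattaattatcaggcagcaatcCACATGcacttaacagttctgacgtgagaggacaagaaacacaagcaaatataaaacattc
DCT: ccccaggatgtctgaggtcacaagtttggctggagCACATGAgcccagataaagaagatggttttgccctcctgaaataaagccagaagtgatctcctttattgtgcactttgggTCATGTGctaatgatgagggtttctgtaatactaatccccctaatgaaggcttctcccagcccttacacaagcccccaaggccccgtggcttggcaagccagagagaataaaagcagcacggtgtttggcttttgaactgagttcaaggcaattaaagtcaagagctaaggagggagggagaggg
GPNMB: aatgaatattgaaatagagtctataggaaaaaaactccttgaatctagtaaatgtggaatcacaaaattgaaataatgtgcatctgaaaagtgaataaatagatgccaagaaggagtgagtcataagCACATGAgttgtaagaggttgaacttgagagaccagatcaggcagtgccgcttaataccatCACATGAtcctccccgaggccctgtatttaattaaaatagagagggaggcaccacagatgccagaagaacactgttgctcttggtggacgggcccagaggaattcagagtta
MLPH: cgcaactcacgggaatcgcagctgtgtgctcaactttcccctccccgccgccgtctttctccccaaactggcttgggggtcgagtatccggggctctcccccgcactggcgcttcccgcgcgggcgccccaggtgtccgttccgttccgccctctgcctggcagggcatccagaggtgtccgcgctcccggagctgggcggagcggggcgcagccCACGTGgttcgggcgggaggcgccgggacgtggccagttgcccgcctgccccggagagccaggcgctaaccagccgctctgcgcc
The first base of the motifs lies 104 and 12 bases before the start in TYR, 144 and 11 in TYRP1, 215 and 134 in DCT and 35 in MLPH.

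The transport genes split. MLPH, melanophilin, links the small GTPase RAB27A to the myosin MYO5A, and the 3 together carry melanosomes along actin. MLPH (ENSG00000115648, chr2:237485428-237555318) was at 17.4, 20.3, 17.8 and 19.97 CPM in WT and rose to 83.1 and 96.1 CPM in 1q-loss clone 1 and to 86.5 and 109.3 in clone 2, a 5.08-fold rise (log2 fold change 2.35, SE 0.102, adjusted p = 7.99e-08). RAB27A was at 43.4, 40.7, 34.7 and 36.5 CPM in WT and at 40.6, 45.8, 53.2 and 52.4 in 1q-loss, where clone 1 overlapped with WT and clone 2 did not. Its call, at a 1.27-fold rise (adjusted p = 0.0224), was lost without clone 2 (log2 fold change 0.18, adjusted p = 0.223). MYO5A fell 1.74-fold, from 163.3 to 203.9 CPM in WT to 93.3 to 112.6 CPM (adjusted p = 3.58e-05). RAB38, which routes pigment enzymes to melanosomes, fell 2.08-fold, from 48.0 to 52.4 CPM to 19.9 to 26.8 CPM (adjusted p = 1.3e-05). HPS4, a subunit of the BLOC-3 complex, fell 1.6-fold, from 55.5 to 73.0 CPM to 34.5 to 41.7 CPM (adjusted p = 0.000225).

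Of the 3 receptors, KIT, the receptor for stem cell factor on which melanocyte survival depends, was low in WT at 3.20 to 4.78 CPM and fell to 0.0949 to 0.378 CPM in 1q-loss (adjusted p = 6.05e-06). EDNRB, the endothelin receptor of melanoblasts, was at 123.1, 139.4, 124.4 and 91.2 CPM in WT and at 23.2, 22.5, 10.4 and 6.40 CPM in 1q-loss, 7.54-fold lower (adjusted p = 6.16e-05). MC1R, the melanocortin receptor that switches between pigment types, fell 1.7-fold (adjusted p = 0.0243). Its libraries overlapped, at 4.24 to 9.16 CPM in WT and 2.89 to 4.33 in 1q-loss, and without 1q-loss clone 1 the call was lost (log2 fold change -0.58, adjusted p = 0.127).

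The remaining 8 genes all fell in 1q-loss, with a median log2 fold change of -4.04. S100B, a calcium-binding marker of neural crest derivatives, was at 63.1 to 101 CPM in WT and 2.66 to 11.1 in 1q-loss (11.5-fold, adjusted p = 2.25e-05). QPCT, a glutaminyl cyclase, was at 338.8 to 416.8 CPM in WT and 111.2 to 132.9 in 1q-loss (3.11-fold, adjusted p = 2.74e-07). ST8SIA1, the sialyltransferase that makes ganglioside GD3, went from 16.7 to 29.7 CPM to 0.481 to 1.85 CPM (23.1-fold, adjusted p = 2.19e-06). CHL1, a cell adhesion molecule, went from 8.01 to 14.9 CPM to 0 to 0.427 CPM (adjusted p = 8.59e-06). ABCB5, a drug efflux transporter, went from 2.74 to 4.49 CPM to 0 to 0.142 CPM (adjusted p = 5.03e-06). CAPN3, a calpain protease, went from 2.18 to 2.81 CPM to 0 to 0.190 CPM (adjusted p = 1.85e-05). TSPAN10, a tetraspanin, went from 3.11 to 7.28 CPM to 0.142 to 0.814 CPM (adjusted p = 6.83e-05). BCAN, the proteoglycan brevican and the one member on 1q, fell 3.04-fold, from 8.77 to 17.5 CPM to 3.5 to 4.89 CPM (adjusted p = 0.000133).

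Between the 2 clones without the extra 1q, the set was not equally low. In the fit that groups all 18 libraries by clone, 31 genes were called in clone 1 against WT (1 higher, 30 lower; 38.1% of 17302 genes, 19.6% higher and 18.5% lower) and 32 in clone 2 (3 higher, 29 lower; 41.7%, 21.6% higher and 20.1% lower). Clone 1 against clone 2 gave 10 calls, 9 of them higher in clone 1 and 1 lower, against 3.60% of all genes called (2.03% higher and 1.57% lower). The 9 were SOX10, MITF, DCT, SLC24A5, EDNRB, LEF1, GPNMB, S100B and IRF4, with log2 differences from 1.07 in LEF1 (adjusted p = 0.00271) to 3.80 in DCT (adjusted p = 0.027). TFAP2A was lower in clone 1 (log2 difference -0.47, adjusted p = 0.0136). PMEL and TYRP1, at 23.0 and 25.1 against 10.5 and 9.62 CPM and at 0.946 and 0.665 against 0.817 and 0.296 CPM, were not called between the clones (adjusted p = 0.565 and 0.86).

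The 1q-loss libraries were also set against the 10 libraries of the other 2 losses, in a fit with no WT library. There, 31 of the 33 genes were called, 29 lower and 2 higher (39.3% of 16015 genes, 20.0% lower and 19.3% higher), with a median log2 difference of -3.06 over the 33 genes and -0.01 over all genes. SOX10 (log2 difference -3.48, adjusted p = 2.21e-06), MITF (-3.11, adjusted p = 2.56e-06) and PMEL (-5.58, adjusted p = 8.75e-06) were lower, and MLPH (2.11, adjusted p = 0.00427) and RAB27A (0.55, adjusted p = 0.00782) higher. MLANA (-0.76, adjusted p = 0.101) and TFAP2A (0.21, adjusted p = 0.314) were not called. With the libraries of each clone summed into 1, which leaves 7 samples, 14 genes were lower and none higher, while the calls over all genes went from 6288 to 3228. Without 1q-loss clone 1 the fit gave 19 lower (4562 genes in all), and without 1q-loss clone 2 it gave 20 (3844 genes in all).

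MLANA fell in every clone of every loss. The 7p-loss libraries held 2.87 and 4.93 CPM in clone 1, 2.11 and 2.12 in clone 2 and 1.62 and 1.79 in clone 3, and the 8q-loss libraries held 2.70, 2.22, 1.61 and 2.45 CPM. All of these lay below the lowest WT library at 13.96 CPM, and the group falls were 7.69-fold in 7p-loss (log2 fold change -2.94, SE 0.309, adjusted p = 0.00092) and 9.02-fold in 8q-loss (-3.17, SE 0.219, adjusted p = 0.00013). MLANA was the one gene of the set called in 7p-loss, and per clone its log2 fold changes lay between -3.57 and -2.30 in 7p-loss and at -3.01 and -3.32 in 8q-loss. All 7 clones therefore shared a low MLANA level against the unedited line, whichever arm they had lost. No unedited single-cell clone of A2058 was analysed here, so the loss of an arm and the growth from a single cell cannot be told apart.

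TYR and TYRP1 divided the 7p-loss clones. TYR was at 557 and 1038 CPM in clone 1, above all WT libraries, and at 1.07 and 4.97 CPM in clone 2 and 0.0984 and 1.08 in clone 3, below all of them. Against WT the log2 fold changes were 2.76 in clone 1 (adjusted p = 4.74e-05), -5.36 in clone 2 (adjusted p = 3.05e-05) and -7.66 in clone 3 (adjusted p = 4.89e-06), where the last rests on 2 and 24 counts. TYRP1 was at 138.4 and 286.8 CPM in clone 1, 5.38 and 6.35 in clone 2 and 0.541 and 1.12 in clone 3. Its log2 fold changes were 3.90 (adjusted p = 5.68e-08), -1.34 (adjusted p = 0.0225) and -4.14 (adjusted p = 2.11e-05). As a group, 7p-loss gave no call for either gene (adjusted p = 0.814 for TYR and 0.533 for TYRP1), since its clones lay on opposite sides of WT. The F-test over the 3 clones called both (adjusted p = 1.24e-08 and 2.75e-09). In that test 22 of the 33 genes differed among the 7p-loss clones, and 32.4% of all genes did.

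Clone 1 of 7p-loss was mixed: 16 of the 33 genes were called, 9 higher and 7 lower, against 34.0% of all genes, 16.8% higher and 17.2% lower, that is 48.5% of the set. Beside TYR and TYRP1, the higher genes were MLPH (52.7 and 68.8 CPM), EDNRB (223.5 and 264 CPM), LEF1 (207.6 and 185.6 CPM), PAX3 (47.7 and 51.8 CPM), MYO5A (260.1 and 286 CPM), TFAP2A (204 and 203.5 CPM) and S100B (141.7 and 115.8 CPM). The lower ones were MLANA, SLC45A2 (0.471 and 0.664 CPM), OCA2 (0.235 and 0.175 CPM), KIT (0.0942 and 0.175 CPM), GPR143 (0.424 and 0.594 CPM), CAPN3 and BCAN. Clone 2 had 10 lower and none higher (4.92% of all genes, 1.99% higher and 2.93% lower), among them TRPM1, OCA2, SLC45A2, IRF4 (9.94 and 16.6 CPM), CHL1 and ABCB5. The genes called in either direction were 21 with no filter on low counts, 16 with DESeq2 and 6 with WT replicates 3 and 4 only, while those over all genes were 1730, 1261 and 504 in place of 852. Clone 3 had 8 lower and none higher (5.97%, 2.08% higher and 3.89% lower), among them TRPM1, with 0 and 2 counts where clone 1 had 66 and 267. The genes called in either direction in clone 3 were 5 without WT replicate 2, 5 with WT replicates 3 and 4 only and 17 with no filter, while those over all genes were 825, 817 and 1706 in place of 1033. SLC45A2 was lower in all 3 clones, with 1.30 and 0.443 CPM in clone 2 and 1.92 and 5.15 in clone 3 against at least 7.05 in WT. Its group value missed the threshold (adjusted p = 0.0912). Every 7p-loss library lay below WT in 4 genes (MLANA, SLC45A2, OCA2 and CAPN3), as in 2.87% of all genes tested, and none of the set lay wholly above WT, as in 1.99%. In 7p-loss PMEL was at 181 and 965.7 CPM in clone 1, 188.9 and 598.4 in clone 2 and 217.9 and 584.4 in clone 3, with 5 of 6 libraries below the lowest WT library (adjusted p = 0.214), and DCT ranged from 272.4 to 1741 CPM with a median of 694.1 (adjusted p = 0.534). GPNMB and ABCB5, the members on 7p, were at 241.1 to 923 CPM and 0.394 to 5.31 CPM in 7p-loss and were not called (adjusted p = 0.394 and 0.498). Leaving out clone 1 raised the count from 1 to 9 lower genes, with 898 in place of 139 genes called in all.

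**Figure D3:**
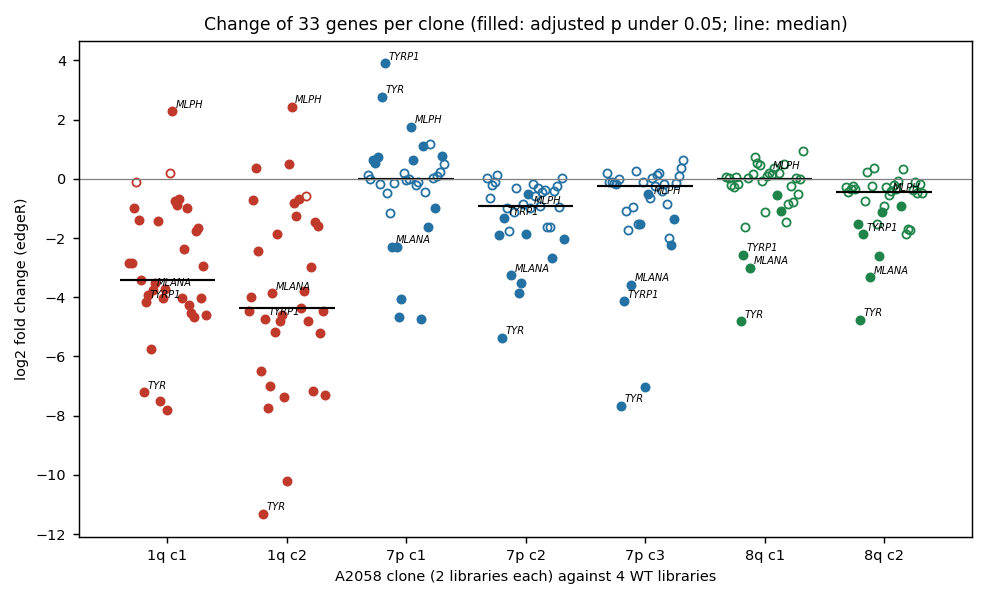
Log2 fold change (edgeR) of the 33 genes in each clone against the 4 WT libraries, filled where the adjusted p is under 0.05, with the median as a line. The medians lie at -3.43 and -4.36 in the 1q-loss clones and between -0.91 and 0.01 in the others, and TYR and TYRP1 lie at the top in 7p-loss clone 1 and below 0 in the other 6 clones. TYR and TRPM1 in 1q-loss clone 2 rest on 2 and 0 counts.

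In 8q-loss the genes that fell were MLANA, TYR, TYRP1, EDNRB and CAPN3. TYR was at 2.08 and 6.67 CPM in clone 1 and at 3.36 and 5.75 in clone 2, a 27.7-fold fall from WT (log2 fold change -4.79, SE 0.323, adjusted p = 0.00013). TYRP1 was at 2.45, 2.45, 3.85 and 4.34 CPM (4.57-fold, adjusted p = 0.00325). EDNRB was at 61.5, 48.6, 67.4 and 58.6 CPM (2.03-fold, adjusted p = 0.00625). CAPN3 was at 0.540, 1.23, 0.487 and 0.848 CPM (3.17-fold, adjusted p = 0.0229), and its call was lost without any single one of the 4 WT libraries (adjusted p between 0.0528 and 0.0899). Without 8q-loss clone 1 the count of lower genes was 9 in place of 5, with 557 genes called in all in place of 308. With all 18 A2058 libraries grouped by genotype in 1 fit it was 1, MLANA, with 161 genes called in all. DCT was at 302.7, 634, 480 and 1262 CPM and was not called (adjusted p = 0.231). In 8q-loss PMEL, at 889, 1834, 1054 and 2128 CPM, overlapped with WT (adjusted p = 0.906). TYR was thus low in a group in which PMEL, SOX10 and MITF overlapped with WT and were not called. Every 8q-loss library lay below WT in 8 genes (MLANA, TYR, TYRP1, EDNRB, PAX3, TFAP2A, CAPN3 and HPS4), as in 4.52% of all genes tested, and above WT in none, as in 4.21%.

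Other members were not called in 7p-loss or 8q-loss. QPCT was at 260.9 to 544.8 CPM in 7p-loss (median 338.3) and 314.2 to 431.7 in 8q-loss. S100B was at 66.1 to 141.7 CPM (median 104.2) and 55.6 to 94.7. ST8SIA1 was at 8.15 to 32.8 CPM (median 21.7) and 13.48 to 21.7. None of these 3 was called in either group (adjusted p between 0.321 and 0.911). RAB38 was at 31.0 to 51.6 CPM (median 35.9) in 7p-loss and 36.3 to 70.6 in 8q-loss (adjusted p = 0.353 and 0.856). HPS4 was at 45.6 to 75.2 CPM (median 56.3) in 7p-loss and, below all WT libraries, at 39.9 to 49.5 in 8q-loss (adjusted p = 0.805 and 0.078).

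Per clone, 8q-loss clone 1 had 5 lower genes and no higher one (8.68% of all genes, 4.32% higher and 4.36% lower) and clone 2 had 7 lower and no higher one (3.87%, 1.39% higher and 2.49% lower). MLANA, TYR, TYRP1 and EDNRB were called in both. Clone 2 added SLC45A2, which was at 10.4 and 17.5 CPM in clone 1 and at 1.17 and 2.17 in clone 2, as well as SLC24A5 and IRF4, and clone 1 added HPS4. With no filter on low counts 12 and 17 genes were called in either direction, while the calls over all genes went from 1501 to 2113 and from 670 to 1305. Clone 1 against clone 2 gave 6 calls, all higher in clone 1 (5.41% of all genes, 2.80% higher and 2.61% lower). They were SLC45A2 (log2 difference 3.08, adjusted p = 0.00178), OCA2, SLC24A5, MYO5A, IRF4 and CHL1.

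Libraries that carry the same replicate number in different clones were alike in some of these genes, and the labels do not say what a number stands for. In all 5 clones of 7p-loss and 8q-loss, 11 of the 33 genes were lower in replicate 1 than in replicate 2, as were 15.2% of the 13762 genes at a mean of at least 1 CPM in A2058. Among the 11 were PMEL (2.02 to 5.33 times), DCT (2.09 to 6.39 times), TYR (1.71 to 10.9 times) and GPNMB (1.47 to 2.29 times). LEF1, S100B and TFAP2A were higher in replicate 1 of all 5 clones, as were 12.9% of all these genes. In 1q-loss clone 1 PMEL was at 23.0 and 25.1 CPM in replicates 1 and 2, and in clone 2 at 10.5 and 9.62. In the 7p-loss and 8q-loss clones PMEL and DCT thus varied at least 2-fold between the libraries of 1 clone, and in the 1q-loss clones less. WT replicate 3 was also low in both, at 781 and 833.5 CPM.

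Genes around the set were read from 4 lists of names. In 1q-loss, 25.3% of all genes tested were called higher and 24.3% lower. Of 29 tested genes associated with MITF, 27 fell in 1q-loss and none rose (median log2 fold change -1.78), among them GYG2 (log2 fold change -5.06, adjusted p = 6.02e-06), DAPK1 (-4.72, adjusted p = 8.35e-05) and SEMA6A (-3.84, adjusted p = 1.71e-05). Of 24 melanosome biogenesis and transport genes, 14 fell and 4 rose (median -0.27). MYRIP, an adaptor between RAB27A and myosins, fell most (-5.58, adjusted p = 5.75e-06), followed by LYST (-2.09, adjusted p = 1.49e-06), a regulator of lysosome size on 1q, and RAB32 (-1.10, adjusted p = 1.93e-06), a partner of RAB38. Of 18 neural crest and undifferentiated melanoma genes, 7 rose and 8 fell (median 0.20). WNT5A, a ligand of non-canonical Wnt signalling, rose from a mean of 0.98 CPM in WT to 455 CPM in 1q-loss (log2 fold change 8.87, adjusted p = 5.65e-09), PDGFRB rose (3.20, adjusted p = 0.00166), and POU3F2 fell (-3.22, adjusted p = 3e-04). Of 7 tested ligands and related factors, 3 rose (TFEC, TFEB and TFE3, relatives of MITF) and 1 fell (SOX5). TFEB went from a mean of 2.98 to 13.6 CPM (2.22, adjusted p = 2.58e-05).

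In 7p-loss and 8q-loss these lists were mostly uncalled, where 0.804% and 1.49% of all genes tested were called lower. In 7p-loss MYRIP was the 1 gene called among the 24 melanosome genes, 0 of 29 MITF-associated genes were called, and 0 of 17 and 0 of 6 in the other 2 lists. In 8q-loss, 2 of 29 MITF-associated genes fell, PLXNC1 (-2.88, adjusted p = 0.00219) and SIRPA, and 4 of 18 neural crest genes fell, SOX9 (-4.38, adjusted p = 0.00493) and SNAI2 (-2.31, adjusted p = 0.000463), which lies on 8q, among them. No gene of the melanosome list or of the ligand list was called there. In the fit of 1q-loss against the other losses, where 20.0% of all genes were lower and 19.3% higher, 20 of the 29 MITF-associated genes were lower and none higher, 13 of 24 melanosome genes were lower and 4 higher, and 8 of 18 neural crest genes were lower and 5 higher.

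In the lines of other origin most of the set was low, and the highest genes differed between lines. At a mean of at least 1 CPM in libraries that keep the gain stood all 33 genes in A2058, 11 in A2780, 10 in AGS, 11 in HCT116 and 11 in MCF10A without hRASV12. HPS4, TFAP2A, RAB27A, MYO5A, MC1R and BCAN were among them in all 4 of these lines. No count at all was found in any control library for 12 genes in AGS, 13 in HCT116 and 13 in MCF10A, with TYR, KIT, PAX3, EDNRB, TRPM1, CHL1 and SLC24A5 in all 3 of these groups. In A2780, by contrast, only LEF1 was at 0 in all 4 control libraries.

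**Figure D4:**
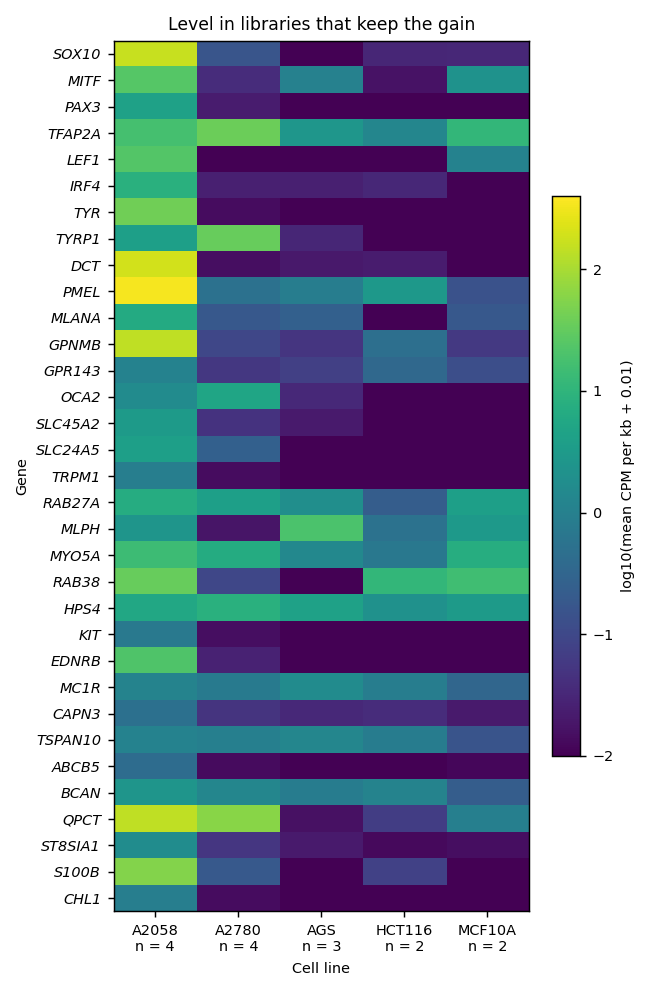
Mean level in the libraries that keep the gain, as log10 of CPM per kilobase of gene length with 0.01 added, for the 33 genes (rows) in 5 lines (columns, n libraries). PMEL is highest in A2058 at 343.2 CPM per kb, QPCT in A2780 at 61.2, MLPH in AGS at 19.6 and RAB38 in HCT116 at 10.98 and in MCF10A at 15.4. For part of the genes the lengths used for A2780 differ from those of the other lines, so its column does not share their scale. TFAP2A was at 122.7 CPM and 36.98 CPM per kb in A2780, and at 147.7 CPM and 17.85 CPM per kb in A2058.

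Some pigment genes were present outside melanoma. A2780 held TYRP1 at 136.2 and 139.5 CPM in WT and 57.2 and 49.9 in TK+ cells, a mean of 95.7 CPM where the A2058 WT libraries held 9.92 to 20.1. Its 1q-loss libraries ranged from 3.93 and 4.06 CPM in clone 2 through 31.5 and 31.97 in clone 5 to 98.4 and 94.8 in clone 6, so the clones spanned more than the controls. OCA2 was at 14.8 to 19.2 CPM in A2780 controls and 6.66 to 10.8 in its 1q-loss libraries. SOX10 and MITF did not reach a mean of 1 CPM in A2780. QPCT was the highest gene per kilobase there, at 99.9 to 115.8 CPM in controls and 90.3 to 116.3 in 1q-loss. BCAN, on 1q, was at 3.13 to 5.52 CPM in A2780 controls and at 7.36 to 25.3 in 1q-loss.

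MITF was at 6.58 to 8.48 CPM in AGS controls and at 13.3 and 18.6 in MCF10A WT, beside no count of TYR and PAX3 in either line. MLPH was the highest of the set per kilobase in AGS, at 136.3 to 167.2 CPM in controls and 66.0 to 124.6 in 1q-loss. RAB38 led in HCT116 (10.4 and 21.8 CPM in WT) and in MCF10A (20.1 and 25.1 CPM). In HCT116, MLPH had 88 and 112 counts in the 2 WT libraries and 0 in all 4 libraries of the 2 8q-loss clones. Against a floor of 3 counts per library it was at least 34.9-fold lower there. In AGS, EDNRB had 0 counts in the 3 controls and 21, 21, 21, 44 and 3 counts in the 5 1q-loss clones, a mean at least 7.12-fold higher against the same floor. The clone with 3 counts, 0.199 CPM, lay at that floor and was the one made with ReDACT-CO; the part of the method version was not tested. In MCF10A hRas, MLPH was at 29.2 and 29.7 CPM in WT and ranged from 22.5 to 109 CPM in the 1q-loss libraries. These levels were described without a test.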

How the data were processed

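Poly(A)-selected RNA of 62 libraries was read from tables of raw counts per gene deposited by the authors. Reads were aligned with HISAT2 2.0.5 to hg38 and counted with featureCounts 1.5.0-p3, per the submitters' processing notes, although the A2780 tables carry positions of another build. Whether strand was used is not given in the sources used here. Groups came from the labels. CPM was computed from each library's total count, and CPM per kilobase with the deposited gene length. For part of the genes this length differs between A2780 and the other lines, so levels per kilobase compare genes within a line only. Genes were filtered with filterByExpr (minimum count 10, minimum total 15), scaled by TMM and tested with edgeR 4.0.16 in R 4.3.3 (quasi-likelihood F-test), with Benjamini-Hochberg adjustment over all genes tested and calls at adjusted p under 0.05. Standard errors were derived from each fold change and its F statistic. Each group comparison used its own libraries, and clones were compared in 1 fit of all 18 A2058 libraries. No 2 libraries of a group agreed within counting noise (126 pairs, chi-square per degree of freedom at least 3.46). The alternatives were DESeq2 1.42.0, other scaling, no filter, summed clones, WT pairs, a replicate block and leaving out libraries or clones. Fits were tested on simulated data. Promoters were taken from RefSeq (GRCh38.p14) and searched with Python 3.11.15. All 33 genes are accounted for. Values of each library, or the range of a group, are given for members called in a group comparison or at a mean of at least 5 CPM in an A2058 group, for the highest member per kilobase in each other line, and for members between at least 1 and under 0.1 CPM in control and loss libraries of a line. At most 3 genes of each further list are named in full, by size of change. The members and lists were chosen with earlier results of these data known.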

Additional observations from a re-analysis of the deposited data

Results flagged for a closer look

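Dixon's test at the 95% level was run on 172 sets of a gene and a group of 4 to 10 libraries. In 8 of them 1 library stood apart from the rest of its group. For independent libraries chance gives about 1 in 20. Libraries of 1 clone, and genes read in the same library, are not independent, so that rate is a rough guide only. In 7p-loss, clone 1 replicate 2 was the highest of 6 libraries for ABCB5 (5.31 CPM), RAB27A (42.1 CPM), TRPM1 (9.33 CPM) and TSPAN10 (17.3 CPM), and clone 3 replicate 2 was the highest for SLC45A2 (5.15 CPM). WT replicate 3 was the lowest of 4 libraries for DCT (833.5 CPM) and QPCT (338.8 CPM). In HCT116, 8q-loss clone 2 replicate 1 was the lowest of 4 for TSPAN10 (3.01 CPM).

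Clones of the same loss differed. Against WT, TYR had log2 fold changes of 2.76, -5.36 and -7.66 in 7p-loss clones 1, 2 and 3, and TYRP1 had 3.90, -1.34 and -4.14. The differences among the 3 clones were tested in edgeR and called for both genes, and for 22 of the 33 genes in all. The same test called 32.4% of all genes. Between the 2 clones of 1q-loss 10 genes of the set were called (3.60% of all genes tested) and between the 2 clones of 8q-loss 6 (5.41%). Between 1q-loss and the other losses 31 were called (39.3%).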

How the results depend on the processing

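In the 3 group comparisons with WT and in that of 1q-loss with the other losses, no called gene of the set changed direction under any alternative run. In 1q-loss 30 of the 32 calls held under all 20 alternatives, and RAB27A (adjusted p up to 0.228) and MC1R (up to 0.278) did not. The count of higher genes, 2, was 1 with summed clones, with WT replicates 1 and 2 only and in the fit of all 18 libraries, and 1 to 3 with a library or clone left out. In 7p-loss the lower count, 1, was 4 with DESeq2 and 1 to 9 with a library or clone left out, and the 139 genes called were 525 with DESeq2, 55 with summed clones, 16 with WT replicates 1 and 2, 47 with WT replicates 3 and 4 and 71 to 898 with a library or clone left out. In 8q-loss the lower count, 5, was 8 with DESeq2, 2 with WT replicates 3 and 4, 1 in the fit of all 18 libraries and 4 to 9 with a library or clone left out. Its 308 genes called were 684 with DESeq2, 487 with no filter, 79 and 16 with WT replicates 1 and 2 and 3 and 4, 161 in the fit of all 18 libraries and 119 to 783 with a library or clone left out. MLANA was the 1 gene of these 5 called under every alternative.

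With no filter, 21, 17, 12 and 17 genes of the set were called in 7p-loss clones 2 and 3 and 8q-loss clones 1 and 2 in place of 10, 8, 5 and 7, and 14 in place of 6 between the 8q-loss clones. Over all genes, no filter gave 1730 calls in 7p-loss clone 2 in place of 852, 1706 in clone 3 in place of 1033, 1305 in 8q-loss clone 2 in place of 670, 1125 between the 1q-loss clones in place of 623 and 1531 between the 8q-loss clones in place of 936. DESeq2 gave 16 genes of the set in 7p-loss clone 2 and 8 in 8q-loss clone 1. The count over all genes is not given for the latter, so its 8 cannot be weighed against all genes. WT replicates 1 and 2 alone gave 554 and 614 genes in 7p-loss clones 2 and 3. WT replicates 3 and 4 alone gave 504 genes, 6 of the set, in 7p-loss clone 2, 5 of the set in clone 3, 791 genes in place of 1501 in 8q-loss clone 1, and 285 genes, 4 of the set, in 8q-loss clone 2. With a WT library left out, the count in 7p-loss clone 3 was 5 to 8. In 1q-loss against the other losses, summed clones gave 3228 genes in place of 6288, with 0 of the set higher and 14 lower, and leaving out a library or clone gave 3844 to 7295 genes, with 1 to 3 of the set higher and 19 to 29 lower. Summing leaves fewer samples. The cause of the other shifts was not tested.

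Same-numbered libraries did not all deviate together. Taken with WT, 1q-loss, 7p-loss and 8q-loss had deviations correlated over 0.1 in 3 of 6, 6 of 12 and 2 of 6 pairs. Among the clones of all 3 losses, without WT, 26 of 42 pairs were over 0.1, and all 42 were positive (0.0502 to 0.388). There the 2 libraries of a clone deviate by opposite amounts, so replicates 1 and 2 of the same clones give the same correlation. Since not every pair was over 0.1, the numbers were not taken as pairs. That rule does not tell whether a number stands for a shared factor, and this was not tested. With a replicate block, 1q-loss gave 1 gene of the set higher and 29 lower, 7p-loss gave 1 gene in all and 0 of the set (MLANA adjusted p = 0.0718), and 8q-loss gave 39 genes and 4 of the set, without CAPN3 (adjusted p = 0.1). Between 1q-loss and the other losses it gave 27 of the set lower, without TYR (adjusted p = 0.0586) and TYRP1 (0.0529), and 2 higher. The block gave 18 genes of the set in 7p-loss clone 2, 11 in 8q-loss clone 1, 14 of the set and 1199 genes in 8q-loss clone 2, and 1522 genes between the 8q-loss clones. Where a count of the set stands without one over all genes, it does not tell whether a shift was particular to the set. Genes under about 1 CPM in a group rest on few counts, and their fold changes are the least precise.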
